A study of Mus musculus with 18 samples.

Results

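The genes described here encode heat shock proteins, their co-chaperones and the stress factors that control them, compared between 2 inbred mouse strains in 3 tissues. Members were taken by symbol from the platform annotation: the Hspa, Hspb, Hspd, Hspe, Hsph and Hsp90 genes, the J protein genes (Dnaja, Dnajb, Dnajc), the numbered Cct genes, and 7 further symbols (Cryab, Herpud1, Hyou1, Xbp1, Atf4, Ddit3 and Hsf1). The rule found 80 genes on 87 spots, among 15095 named genes and 21765 spots. The genes were sorted by where their proteins act: 42 in the cytosol or nucleus, 8 in the CCT chaperonin, 13 in the endoplasmic reticulum (ER), 7 in mitochondria and 3 stress transcription factors, with 7 left unassigned. Hsp90aa1, Hsp90ab1, Hspa1b and Hsf1 are not analysed here.

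Each of 18 glass arrays held DBA/2J RNA in one colour and C57BL/6J RNA in the other, from whole brain, whole kidney or whole liver, with 6 hybridisations for each tissue. Per the labels, a pool combined 10 mice for brain and kidney and 9 mice for liver, and one pool of each strain served every array of a tissue. The p-values therefore rest on repeated hybridisations of pooled RNA and say nothing of variation between animals. DBA/2J RNA was labelled with Alexa Fluor 647 and C57BL/6J RNA with Alexa Fluor 555 throughout, with no dye swap, so strain and dye cannot be told apart at any single spot. The sources used here give no age, sex or treatment of the mice. In such bulk RNA, fewer cells of a type and less RNA per cell cannot be told apart.

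Values are log2 ratios of DBA/2J over C57BL/6J after normalisation within each array, so a value of 1 is a 2-fold higher signal in DBA/2J. The labels name DBA/2J first in each pair, which makes this direction likely, although no source states it. Known strain alleles lay on the matching side. Glo1, present in extra copy in DBA/2J, was at 0.64, 0.78 and 0.91 in brain, kidney and liver, and Hc, which encodes the complement C5 that DBA/2J lacks, was at -1.08 in liver. Ratios of the same tissue correlated between arrays, across spots, with a mean r of 0.385 for brain, 0.631 for kidney and 0.476 for liver. The median SD of a spot over 6 arrays was 0.197, 0.178 and 0.183. Published markers of each tissue had high median intensity percentiles in it. These were 87.5 for brain markers in brain, 96.9 for kidney markers in kidney and 99.4 for liver markers in liver. Single markers departed from this: the brain marker Camk2a was at 7.02 in brain, and the kidney marker Aqp2 at 99.5 in liver. A gene was called higher or lower in DBA/2J where limma, tested on the 6 arrays of a tissue against 0, gave a Benjamini-Hochberg adjusted p below 0.05 over 20218 features.

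Molecular chaperones bind unfolded proteins and help them fold, assemble or be degraded. HSP70 proteins do so in cycles of ATP hydrolysis that J proteins start and HSP110 proteins help to reset, while small heat shock proteins hold unfolded proteins without using ATP and chaperonins enclose them in a ring. Heat and other damage to cytosolic proteins raise chaperone genes through the heat shock factor HSF1, which binds repeats of the letters nGAAn. Unfolded proteins in the ER act through a separate pathway, the unfolded protein response, whose transcription factors ATF6, XBP1 and ATF4 raise ER chaperones and degradation genes. The liver secretes large amounts of plasma protein and so has an extensive ER.

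In liver, 26 of 80 genes were called, 5 higher and 21 lower in DBA/2J, where 23% of all features were called, 10.9% higher and 12.2% lower. In kidney 32 were called, 17 higher and 15 lower, against a background of 39.8% (20% higher and 19.8% lower), so the 40% called among these genes was near that of any other features. In brain 10 were called, 5 each way, against 13.6% (7.3% higher and 6.3% lower). The lower genes made up 26.2% of the members in liver. The median ratio of the 80 genes was -0.08 in liver, 0.01 in kidney and 0.02 in brain, and that of all features was 0.00 in each tissue. Without loess, where each array was only centred on its median, the called members split 34 higher to 11 lower in kidney, 7 to 16 in liver and 7 to 4 in brain. With the intensities behind the ratios left in lowest terms the brain split was 11 to 6. Leaving out brain array 5 or brain array 6 cut the brain count to 6.

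Across the tissues, 47 of the genes were called at least once and 33 never, and the means of those 33 ran from -0.22 to 0.34. One gene, Hspa14, was called higher in all 3 tissues, where 0.875% of all features were, and 3 genes, Cryab, Dnajb3 and Hspa1a, were called lower in all 3, where 2.06% were (without loess the kidney mean of Hspa1a turned to 0.09). Calls in opposite directions were made for 3 genes, Hspa5, Hspe1 and Hyou1, although without loess the kidney means of Hspa5 and Hspe1 turned to 0.56 and 0.41. Among the called genes a difference of 2-fold or more was found for Cryab in kidney and Hspa14 in liver. Shares over all features were not counted for calls in at least 1 tissue, in none, in opposite directions or of 2-fold or more. By tissue, 13.6% of all features were called in brain, 39.8% in kidney and 23% in liver. Ratios lay on a single side of 0 on all 6 arrays for 17 genes in brain (21.2%), 27 in kidney (33.8%) and 25 in liver (31.2%), where the shares over all features were 18.1%, 34.9% and 24.9%.

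**Figure D1:**
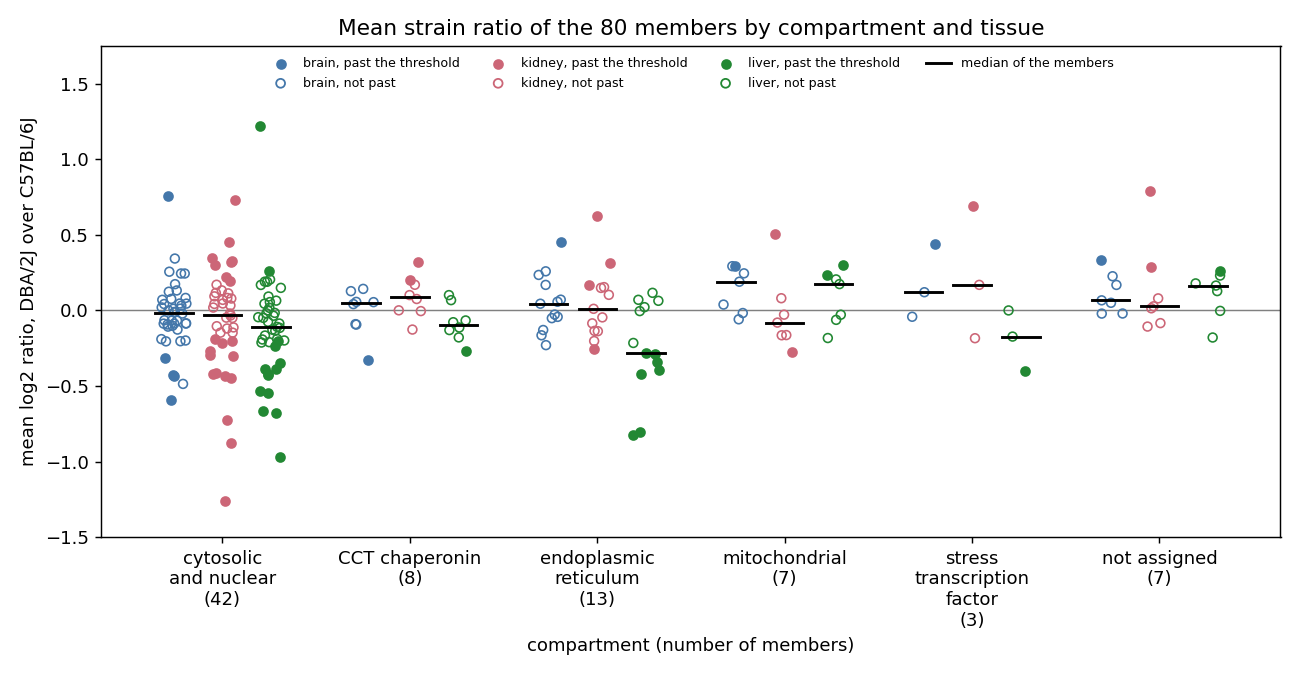
Mean log2 ratio (DBA/2J over C57BL/6J, over 6 arrays) of each of the 80 genes on the vertical axis, by compartment and tissue, with called genes filled and the median of each compartment as a bar. The liver ER genes have their median at -0.28 (-0.19 without loess), while the ER medians of brain and kidney are 0.04 and 0.01; the medians of the cytosolic genes in brain (-0.02) and of the mitochondrial genes in kidney (-0.08) turn to 0.03 and 0.44 without loess.

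Among the ER genes, 7 of 13 were lower in DBA/2J liver, where 12.2% of all features were, and 0 were higher, where 10.9% were. At an unadjusted p below 0.05 in limma, 0 of the ER genes were higher too. Their median of -0.28 stayed between -0.29 and -0.23 when any single liver array was left out. In brain 1 of the 13 was called, Hspa5, which was higher. In kidney 3 were higher (Hyou1, Dnajc14 and Dnajc10) and Hspa5 was lower, which turned to higher without loess. The share of ER genes called was 7.69% in brain and 30.8% in kidney, below the 13.6% and 39.8% of all features. The 7 lower genes in liver were Herpud1, Dnajb9, Hsp90b1, Hspa13, Dnajc3, Hyou1 and Dnajb12.

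Promoters of ER stress genes carry short motifs bound by ATF6 and XBP1, and the promoters of 4 ER genes that hold such letters are shown with the motif letters in capitals. Of the 80 genes, 65 had an entry in a RefSeq table of promoters (build GRCm38.p6, 250 bases before to 50 bases after each start site). The ER stress element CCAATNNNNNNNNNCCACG, searched on both strands, was found for 3 members (Hspa5, Hsp90b1 and Dnajc3) and for 0.137% of all 27025 genes with a promoter in the table (0.119% of 32851 promoters). The ER stress element II, ATTGG and CCACG with 1 base between them, was found for Herpud1 and Dnajb11 and for 0.0444% of all genes (0.0365% of promoters). All 5 genes are among the 11 ER members with a promoter in the table. The stretches below end at the base before the start site: Herpud1 is chr8:94386299-94386428 on the plus strand, Hspa5 chr2:34771960-34772089 on the plus strand, Hsp90b1 chr10:86705445-86705694 on the minus strand and Dnajc3 chr14:118937802-118937931 on the plus strand.
Herpud1: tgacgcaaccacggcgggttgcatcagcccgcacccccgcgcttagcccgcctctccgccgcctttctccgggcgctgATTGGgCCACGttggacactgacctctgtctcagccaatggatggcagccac
Hspa5: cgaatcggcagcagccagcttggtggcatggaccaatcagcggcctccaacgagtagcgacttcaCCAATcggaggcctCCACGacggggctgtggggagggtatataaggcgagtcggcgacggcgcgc
Hsp90b1: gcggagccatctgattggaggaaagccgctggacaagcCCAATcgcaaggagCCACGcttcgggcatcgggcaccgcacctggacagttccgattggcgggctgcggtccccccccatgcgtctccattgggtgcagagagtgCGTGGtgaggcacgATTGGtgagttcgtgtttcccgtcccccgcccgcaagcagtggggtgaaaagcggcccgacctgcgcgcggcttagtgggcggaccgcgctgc
Dnajc3: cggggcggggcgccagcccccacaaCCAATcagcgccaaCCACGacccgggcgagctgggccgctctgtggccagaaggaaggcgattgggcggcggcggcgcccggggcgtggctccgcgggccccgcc
In the Herpud1 promoter the match lies 52 to 42 bases before the start site, and in the Hspa5 promoter 65 to 47 bases before it. Hsp90b1 holds 2 matches, 1 of them on the opposite strand. A match describes letters only, and binding was not measured in these data. The unfolded protein response element, TGACGTGG, was found for 0 of the 11 ER members, and for Dnajc25 and 0.714% of all genes. Of the 3 genes with the ER stress element 2 were lower in liver, and of the 2 with element II 1 was. Without these elements, 15 of 62 and 16 of 63 members were lower. Dnajb9, which was lower in liver, has no match to any of these motifs in its window. Hyou1, Hspa13 and Dnajb12, also lower in liver, are not among the genes with a match. A link between these motifs and the ratios was not tested.

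Herpud1 encodes HERP, a membrane protein that helps to recruit misfolded ER proteins for degradation, and it had the lowest ratio of the ER genes in liver. Its liver arrays ran from -0.98 through a median of -0.84 to -0.55, all well below 0. The mean was -0.82 ± 0.15 (SD, n = 6 arrays), 1.77-fold lower, with an adjusted p of 2.43e-05 in limma. In brain and kidney the gene was at -0.16 ± 0.12 and 0.01 ± 0.14, neither past the threshold. The liver ratio was lower than the brain ratio by a difference of -0.66 ± 0.10 (SE, adjusted p 7.39e-05) and lower than the kidney ratio by -0.83 ± 0.10 (SE, adjusted p 9.27e-07).

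Dnajb9 (ERdj4), a J protein that works with the ER HSP70 and with ER-associated degradation, ran from -1.27 through a median of -0.85 to -0.11 in liver. All 6 arrays were below 0, but array 2 stood close to it. The mean was -0.81 ± 0.45 (SD, n = 6, adjusted p 0.00158), against -0.04 ± 0.15 in brain and -0.14 ± 0.12 in kidney. Liver differed from brain by -0.76 ± 0.15 (SE, adjusted p 0.0013) and from kidney by -0.67 ± 0.15 (SE, adjusted p 0.00214). The difference from brain was not past the threshold without loess, at -0.61. Dnajc3 (p58IPK), which also restrains the eIF2 alpha kinase PERK, ran from -0.63 to -0.23 in liver with a mean of -0.34 ± 0.15 (adjusted p 0.00555). In brain it was at 0.26 ± 0.20 and in kidney at 0.15 ± 0.20, both short of the threshold.

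Hsp90b1 (GRP94), the HSP90 of the ER, was bright in all tissues and lower in liver. Its liver arrays ran from -0.57 through -0.41 to -0.26, with a mean of -0.42 ± 0.13 (n = 6, adjusted p 0.00145). Brain and kidney were at 0.06 ± 0.11 and 0.15 ± 0.11. The liver value shrank to -0.19 without loess and was then not past the threshold (adjusted p 0.212), and with 1 loess curve per array it was -0.27. Hspa13, a small HSP70-like protein of the ER, ran from -0.51 to -0.32 in liver, with a mean of -0.40 ± 0.08 (adjusted p 0.00121).

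Hyou1 (GRP170), an HSP110-like partner of the ER HSP70, changed in opposite directions in liver and kidney. In liver its arrays ran from -0.43 to -0.12 with a mean of -0.29 ± 0.12 (n = 6, adjusted p 0.00972). In kidney they ran from 0.47 through 0.59 to 0.85, all above 0 and clear of the liver arrays. The kidney mean was 0.63 ± 0.16 (adjusted p 2.48e-05), 1.54-fold higher, and 1.10 without loess. Brain was at -0.05 ± 0.21. The liver ratio lay below the kidney ratio by -0.92 ± 0.10 (SE, adjusted p 8.17e-07), the largest difference among the members between those tissues, and the kidney ratio lay above the brain ratio by 0.68 ± 0.10 (SE, adjusted p 7.23e-05).

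Of the remaining ER J proteins, Dnajb12 was lower in liver at -0.28 ± 0.19 (adjusted p 0.0202), a call that ended without liver array 3 (-0.29, adjusted p 0.0549) or liver array 6 (-0.28, adjusted p 0.0507); with 1 loess curve per array the value was -0.44. Dnajb11 (ERdj3), a soluble partner of the ER HSP70, was at -0.22 ± 0.23 in liver (adjusted p 0.0834), from -0.52 to 0.12. Dnajc10, Dnajb14, Dnajc14 and Dnajc1 had liver means from 0.02 to 0.12. In kidney Dnajc14 was higher at 0.31 ± 0.24 (adjusted p 0.00994), but at 0.20 and not past the threshold without loess, and 0.48 with intensities in lowest terms. Dnajc10 reached 0.17 ± 0.10 (adjusted p 0.0497) in kidney and missed the threshold whichever kidney array was left out (0.14 to 0.19).

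Xbp1, whose spliced form drives ER chaperone and degradation genes, was lower in liver. Its arrays ran from -0.75 through -0.36 to -0.20, with a mean of -0.40 ± 0.21 (n = 6, adjusted p 0.0047), and a mean of -0.26 without loess that missed the threshold (adjusted p 0.0528). The liver ratio lay below that of brain by -0.52 ± 0.12 (SE, adjusted p 0.00532), or by -0.42 and not past the threshold without loess. Ddit3 (CHOP), a factor raised by the PERK and ATF4 branch, was higher in brain and kidney. Its brain arrays ran from 0.23 to 0.63, with a mean of 0.44 ± 0.17 (adjusted p 0.00488). Its kidney arrays ran from 0.42 to 0.87, with a mean of 0.69 ± 0.18 (adjusted p 1.55e-05), but without loess the kidney mean was 0.09 (adjusted p 0.492). In liver Ddit3 spread from -1.47 on array 5 to 0.51 and had a mean of -0.17 ± 0.68. Atf4, the factor upstream of Ddit3, passed the threshold in no tissue, with means of -0.04, 0.17 and, in liver, 0.00 after rounding.

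**Figure D2:**
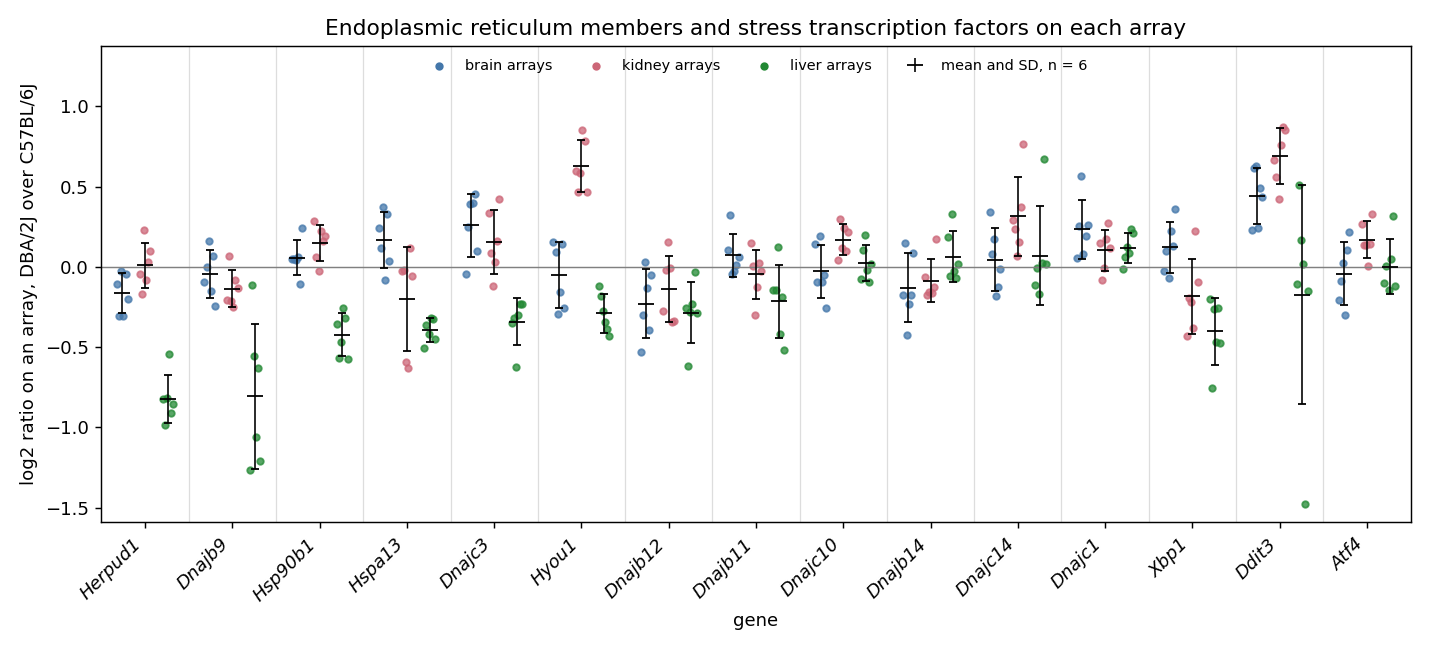
Log2 ratio on each array (vertical axis, DBA/2J over C57BL/6J) for 12 ER genes and the 3 stress transcription factors, coloured by tissue, with the mean and SD of 6 arrays. The liver arrays of Herpud1 run from -0.98 to -0.55 and those of Hyou1 from -0.43 to -0.12, while the kidney arrays of Hyou1 run from 0.47 to 0.85; for Ddit3 the kidney mean of 0.69 is 0.09 without loess.

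Hspa5 (BiP), the HSP70 of the ER, which in resting cells holds the sensors of the unfolded protein response inactive, and Hspa8 (HSC70), the constitutive HSP70 of the cytosol, each had 2 spots that gave different answers in liver. One spot of each gave equal raw numbers for both strains (a deposited log2 ratio within 0.001 of 0) on most arrays, on 17 of 18 for Hspa5 and on 13 of 18 for Hspa8. A total of 16 spots did so on at least 9 arrays, at a median intensity percentile of 99.97. On an array where its channels are equal, the ratio of such a spot carries no strain difference, and after loess it holds the loess correction alone. In liver the channels were equal on 5 of 6 arrays for Hspa5 and on 3 of 6 for Hspa8, so these liver means mix both kinds of array. On the other Hspa5 spot the liver arrays ran from -0.85 to -0.54, all below 0. Its mean was -0.70 ± 0.11 (n = 6, adjusted p over spots 2.99e-05), against 0.44 ± 0.21 in brain (adjusted p 0.00653) and -0.26 ± 0.10 in kidney (adjusted p 0.0073). On the other Hspa8 spot the liver arrays ran from -1.17 to -0.84, again all below 0. Its mean was -0.97 ± 0.13 (adjusted p 4.95e-06), against -0.10 ± 0.08 in brain and -0.18 ± 0.11 in kidney (adjusted p 0.0498).

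Averaged over both spots, Hspa5 was at 0.45 ± 0.36 in brain (adjusted p 0.0222), -0.26 ± 0.13 in kidney (adjusted p 0.00832) and 0.00 ± 0.33 in liver. The brain call ended without brain array 2 (0.43), 5 (0.38) or 6 (0.37), and the mean was 0.77 without loess. The kidney mean turned to 0.56 without loess, was -0.41 with 1 loess curve per array, and missed the threshold in the fit of all arrays (adjusted p 0.0605). Averaged Hspa8 was at 0.24 ± 0.35 in brain, -0.27 ± 0.26 in kidney (adjusted p 0.0248) and -0.21 ± 0.33 in liver. Its kidney call ended without kidney array 1 (-0.28) or 5 (-0.17) and in the fit of all arrays (adjusted p 0.0611), turned to 0.63 without loess, and was -0.18 on the unequal spot. With the spots of equal channels left out, an alternative chosen after seeing the data, liver held 28 called members, 5 higher and 23 lower, and the liver minus kidney differences of Hspa5 and Hspa8 turned to -0.44 and -0.79.

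**Figure D3:**
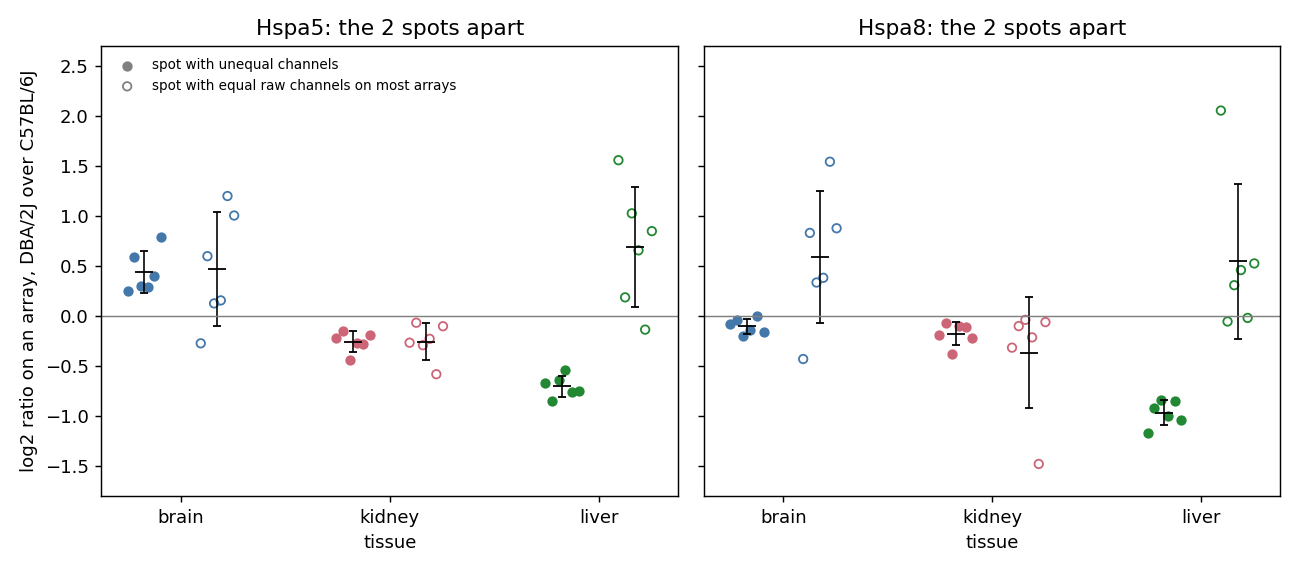
Log2 ratio on each array (vertical axis) for the 2 spots of Hspa5 and of Hspa8 in each tissue, with filled points for the spot whose channels differ, open points for the spot with equal raw channels on most arrays, and the mean and SD of 6 arrays. In liver the filled points lie between -0.85 and -0.54 for Hspa5 and between -1.17 and -0.84 for Hspa8, while the open points have means of 0.69 and 0.55 with SDs of 0.60 and 0.78; the directions are those after print-tip loess.

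Markers of other tissues also differed between the liver pools. Of 5 pancreas markers 4 were measured, 2 of them lower, with a median of -0.56 in liver. Amy2, a pancreatic amylase, was at -1.64 (arrays from -2.19 to -0.77) and Prss2, a trypsinogen, at -0.92 (from -1.33 to -0.09), while Cela1 and Cpa1 were at 0.01 and -0.20 and not past the threshold. Of 4 skeletal muscle markers 3 were higher in liver, with a median of 0.48 and Acta1 at 1.55 (0.36 on array 2 to 2.55). On liver array 2 Prss2 was at -0.09 and Amy2 at -0.77. There Herpud1 was at -0.98, its lowest, Xbp1 at -0.75 and the unequal Hspa5 spot at -0.85, whereas Dnajb9 was at -0.11 and Hspb1 at -0.14. The highest raw number recovered on that array was 57551, against 65524 or more on each other array. The same pools served all 6 liver arrays, so values of a single array cannot show the part of RNA from other tissues. That part was not tested.

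Of 42 cytosolic and nuclear genes 12 were lower and 2 higher in DBA/2J liver, with a median of -0.11, where 12.2% of all features were lower and 10.9% higher. By role, 4 of 8 small heat shock proteins and 2 of 3 HSP110 genes were lower in liver. Of 7 HSP70 genes 3 were lower and 1 higher there. Of 30 J proteins not assigned to the ER or mitochondria 3 were lower and 2 higher. These 30 take in J proteins left unassigned, so the roles hold more genes than the 42. In kidney 13 of the 42 were lower and 8 higher, where 19.8% of all features were lower and 20% higher. In brain 4 were lower and 1 higher, where the shares were 6.3% and 7.3%. The HSF1 motif was searched as 2 units, GAANNTTC or TTCNNGAA, and as 3 units in a row, GAA, TTC and GAA or TTC, GAA and TTC with 2 bases between units, whose letters contain the 2-unit form. The 2-unit form was found for 16 of 65 members and for 17.0% of all genes with a promoter in the table (15.1% of promoters), and the 3-unit form for 4 members (Hsph1, Dnajb6, Hspd1 and Hspe1) and for 0.662% of all genes (0.603% of promoters). Of the 16 genes with the 2-unit form 7 were lower and 1 higher in liver, and of the 49 without it 10 were lower and 4 higher. In kidney 4 of the 16 were lower and 2 higher, and 7 of the 49 were lower and 11 higher. In brain 1 of the 16 was lower and 1 higher, and 3 of the 49 were lower and 4 higher. A link between motif and ratio was not tested. Stretches that end at the base before the start site are shown for 3 genes that were lower in liver, with the motif letters in capitals: Hspa1a is chr17:34972157-34972286 on the minus strand, Hspb1 chr5:135887789-135887918 on the plus strand and Dnaja1, whose table holds 3 promoters, chr4:40722338-40722467 on the plus strand.
Hspa1a: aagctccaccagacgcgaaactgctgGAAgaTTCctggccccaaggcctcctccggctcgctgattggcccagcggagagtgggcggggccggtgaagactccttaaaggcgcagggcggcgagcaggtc
Hspb1: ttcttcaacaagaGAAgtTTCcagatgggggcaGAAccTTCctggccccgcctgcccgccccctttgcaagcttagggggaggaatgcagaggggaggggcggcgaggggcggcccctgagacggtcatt
Dnaja1: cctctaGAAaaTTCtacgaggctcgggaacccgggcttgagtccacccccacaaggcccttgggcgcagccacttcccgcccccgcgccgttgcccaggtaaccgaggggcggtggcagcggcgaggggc

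Cryab (alpha B-crystallin), a small heat shock protein abundant in muscle, lens and kidney medulla, was lower in all 3 tissues. Its kidney arrays ran from -1.46 through -1.29 to -0.91, the lowest of any member in kidney. The kidney mean was -1.26 ± 0.22 (n = 6, adjusted p 2.14e-07), 2.39-fold lower. In liver the arrays ran from -1.23 through -1.03 to -0.63, with a mean of -0.97 ± 0.24 (adjusted p 2.91e-05), 1.96-fold lower. Brain arrays spanned -0.69 to -0.09 around a mean of -0.43 ± 0.22 (adjusted p 0.00793). All 18 arrays were below 0, the kidney and brain ranges did not overlap, and the liver range overlapped both. Kidney lay below brain by -0.82 ± 0.13 (SE, adjusted p 7.23e-05), or by -0.43 without loess, and liver lay below brain by -0.54 ± 0.13 (SE, adjusted p 0.0082).

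Hspb2, which encodes another small heat shock protein and is the next gene to Cryab on chromosome 9, did not share this pattern. It was at 0.02 ± 0.21 in brain, 0.32 ± 0.04 in kidney (from 0.27 to 0.40, adjusted p 0.00107, and 0.95 without loess) and -0.04 ± 0.19 in liver. The gene on the other side of Cryab, 2310030G06Rik, was at 0.26 in brain, -0.32 in kidney and 0.15 in liver. It was called lower in kidney (adjusted p 0.00403 in limma) and was not past the threshold in brain or liver. Hspb1 (HSP27), a small heat shock protein that also binds actin, was lower in liver, where its arrays ran from -1.02 through -0.82 to -0.14. Its liver mean was -0.68 ± 0.38 (n = 6, adjusted p 0.00197), and all 6 arrays were below 0 with array 2 nearest to it. Brain and kidney were at 0.13 ± 0.24 and -0.12 ± 0.24, and liver differed from them by -0.81 ± 0.15 (SE, adjusted p 0.000956) and -0.56 ± 0.15 (SE, adjusted p 0.0107).

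Hspb8, a partner of the co-chaperone BAG3 in selective autophagy, was at -0.42 ± 0.19 in liver (from -0.65 to -0.08, adjusted p 0.00276), 0.07 ± 0.09 in brain and 0.12 ± 0.19 in kidney. Without loess its kidney mean turned to -0.30. Hspb7, a small heat shock protein of heart and muscle, was lower in brain at -0.43 ± 0.12 (from -0.59 to -0.26, adjusted p 0.00335) and in kidney at -0.73 ± 0.32 (from -1.13 to -0.26, adjusted p 9.77e-05). These 2 values were -0.97 and -1.13 without loess, and brain was -0.75 with 1 loess curve per array. In liver Hspb7 was at -0.19 ± 0.22 and not past the threshold. Hspb3 was barely past the threshold in liver at -0.35 ± 0.39 (adjusted p 0.0497), and the call ended without liver array 1 (-0.41), 3 (-0.29), 4 (-0.23) or 6 (-0.34), without loess (-0.26), with 1 loess curve per array (-0.25) and with dim features left out (-0.35). Hspb9 in kidney, at 0.20 ± 0.12 (adjusted p 0.0314), missed the threshold without kidney array 1, 2, 3, 4 or 6 (0.17 to 0.20), and was at 0.05 with intensities in lowest terms.

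Hspa1a, a stress-inducible HSP70 that is a main target of HSF1, was lower in all 3 tissues by similar amounts. In liver its arrays ran from -0.69 through -0.38 to -0.12, with a mean of -0.39 ± 0.23 (n = 6, adjusted p 0.00711). In kidney they ran from -0.69 to -0.12 with a mean of -0.42 ± 0.20 (adjusted p 0.000852), which turned to 0.09 without loess. In brain the range was -0.62 to -0.06 and the mean -0.32 ± 0.23 (adjusted p 0.0317). The 18 arrays were all below 0 and overlapped between the tissues. The brain call ended without brain array 3 (-0.32), 4 (-0.35), 5 (-0.26) or 6 (-0.27), without loess (-0.31) and with intensities in lowest terms (-0.27).

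Hspa14, which encodes a ribosome-associated HSP70, was the only member called higher in all 3 tissues. Its arrays ran from 0.59 through 1.27 to 1.72 in liver, from 0.25 through 0.87 to 0.96 in kidney and from 0.11 through 0.73 to 1.31 in brain. The means were 1.22 ± 0.38 in liver (n = 6, adjusted p 4.39e-05), 2.33-fold higher, 0.73 ± 0.28 in kidney (adjusted p 5.17e-05) and 0.75 ± 0.41 in brain (adjusted p 0.00303). All 18 arrays were above 0, on a spot that was among the dimmest, at intensity percentiles of 0.93, 0.851 and 2.82. Without loess the kidney mean was 0.19 and not past the threshold (adjusted p 0.12).

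Hspa2, an HSP70 best known from the testis, was lower in liver at -0.39 ± 0.33 (from -0.90 to -0.08, adjusted p 0.0201) and in kidney at -0.30 ± 0.37 (adjusted p 0.0392). The liver call ended without liver array 1 (-0.28), 4 (-0.34) or 6 (-0.39), without loess (-0.22), with 1 loess curve per array (-0.27) and with intensities in lowest terms (-0.34). The kidney call ended without kidney array 1 (-0.27), 3 (-0.32), 4 (-0.31) or 6 (-0.18) and with 1 loess curve per array (-0.12), and its direction turned without loess (0.18) and with intensities in lowest terms (0.02). The other HSP70 calls were small: Hspa1l was at -0.22 in kidney and -0.20 in liver, and Hspa12a at 0.22 in kidney. All of these ended without some single array (kidney array 1 or 2 for Hspa1l, any liver array for Hspa1l, any kidney array from 1 to 5 for Hspa12a), and Hspa12a was -0.0012 without loess and 0.41 with intensities in lowest terms. For Hspa1l the kidney value was -0.43 without loess, -0.37 with intensities in lowest terms and -0.05 with 1 loess curve per array.

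Hsph1 (HSP105), an HSP110 that resets HSP70 by nucleotide exchange, was lower in liver. Its arrays ran from -0.76 through -0.60 to -0.19, all below 0, with a mean of -0.55 ± 0.21 (n = 6, adjusted p 0.000851). In the fit of all arrays the same mean had an adjusted p of 0.0755, and that fit includes brain array 2, where Hsph1 read -2.84 while the other 5 brain arrays ran from -0.07 to 0.03. In kidney it was at -0.19 ± 0.09 (adjusted p 0.0303), a call that ended without kidney array 4 (-0.19), 5 (-0.18) or 6 (-0.16) and in the fit of all arrays, and that turned to 0.24 without loess. Hspa4l, a second HSP110, was lower by similar amounts in kidney (-0.43 ± 0.19, from -0.71 to -0.20, adjusted p 0.000587) and liver (-0.42 ± 0.25, from -0.76 to -0.17, adjusted p 0.00596), and was at -0.07 ± 0.28 in brain. Hspa4, the third, was called in no tissue, with means of -0.09, -0.15 and -0.21, and its kidney mean turned to 0.60 without loess.

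Dnaja1 (HDJ2), a farnesylated J protein and a main partner of HSC70, was lower in kidney and liver. Its liver arrays ran from -0.70 through -0.61 to -0.30, with a mean of -0.53 ± 0.17 (n = 6, adjusted p 0.000581), against 0.08 ± 0.22 in brain. The liver value was -0.26 without loess, then not past the threshold (adjusted p 0.0917), and -0.34 with 1 loess curve per array. Its kidney arrays lay close together, from -0.47 to -0.34, with a mean of -0.41 ± 0.05 (adjusted p 0.000172) that turned to 0.45 without loess. Liver lay below brain by -0.62 ± 0.10 (SE, adjusted p 0.000371). Dnajb1 (HSP40), an inducible J protein and HSF1 target, was called in no tissue, with means of 0.12 ± 0.07, 0.05 ± 0.14 and 0.00 ± 0.26.

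Dnajb3, a J protein gene best known from testis, was lower in all 3 tissues. Its arrays ran from -1.03 to -0.71 in kidney, -0.81 to -0.55 in liver and -0.81 to -0.33 in brain. All were below 0, and the ranges of the 3 tissues overlapped. The means were -0.88 ± 0.12 (n = 6, adjusted p 8.47e-07), -0.67 ± 0.10 (adjusted p 4.61e-05) and -0.59 ± 0.17 (adjusted p 0.00087). The spot was dim, at intensity percentiles of 20.2, 23.1 and 30.1, and the calls held under each setting in which the gene was tested.

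Kidney held most of the other J protein calls, and it also had the largest share of all features called (39.8%, against 23% in liver and 13.6% in brain). Of the 30 J proteins not assigned to the ER or mitochondria, unassigned ones included, 6 were higher and 5 lower in kidney. That is 36.7%, near the share of all features. Dnajc18 was the highest of the members there, from 0.29 through 0.85 to 1.04, with a mean of 0.79 ± 0.27 (n = 6, adjusted p 2.58e-05), and it differed from brain by 0.81 ± 0.13 (SE, adjusted p 0.000115). Dnajb13, a J protein of cilia and flagella, was at 0.45 ± 0.19 (from 0.28 to 0.78, adjusted p 0.000442), or 0.08 and not past the threshold without loess. Dnaja2, a close relative of Dnaja1, was at -0.45 ± 0.26 (from -0.86 to -0.14, adjusted p 0.00137), or 0.02 without loess. Smaller kidney ratios were those of Dnajc12 at 0.34 (0.98 without loess, 0.21 with intensities in lowest terms), Dnajc17 at 0.33 (-0.13 without loess), Dnajc9 at 0.30 (-0.27 without loess, and not past the threshold with 1 loess curve per array), Dnajc25 at 0.29 and Dnajc5 at -0.30 (0.22 without loess). In liver the J protein calls beyond those described were Dnajc5 at -0.23, which ended without liver array 1 (-0.22), 3 (-0.20), 4 (-0.24) or 6 (-0.22), Dnajb7 at 0.26, which turned to -0.09 without loess and -0.03 with 1 loess curve per array, and Dnajc4 at 0.26, which ended without liver array 1 (0.24), 2 (0.21), 3 (0.27) or 6 (0.25). The Dnajb7 call also ended without liver array 1 (0.26), 3 (0.25) or 4 (0.22). Dnajc4 was higher in brain too, at 0.34 ± 0.16 (adjusted p 0.0147), or 0.25 and not past the threshold without loess.

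Other genes with several spots also gave unlike readings. The 3 spots of Dnajc2 (MPP11), a ribosome-associated J protein, were at -0.65 (adjusted p over spots 4.73e-05), 0.25 (adjusted p 0.0154) and -0.20 in kidney. They were at -0.33 (adjusted p over spots 0.0151), 0.04 and -0.02 in brain and at -0.36 (adjusted p over spots 0.0128), 0.01 and 0.02 in liver. Of the 3 spots the first was thus lower in every tissue. Their average in kidney, -0.20 ± 0.12 (adjusted p 0.0292), is thus a mean of readings that differ in sign, and the call ended without kidney array 1 (-0.20), 2 (-0.16), 4 (-0.20) or 5 (-0.18), without loess (-0.12) and with 1 loess curve per array (-0.19). Dnajb4 had a spot at -0.04 and a spot at 0.23 (adjusted p over spots 0.035) in liver. Dnajc1 had a spot at 0.42 (adjusted p over spots 0.0085) and a spot at 0.05 in brain. Which spot reports the gene cannot be told from these data.

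**Figure D4:**
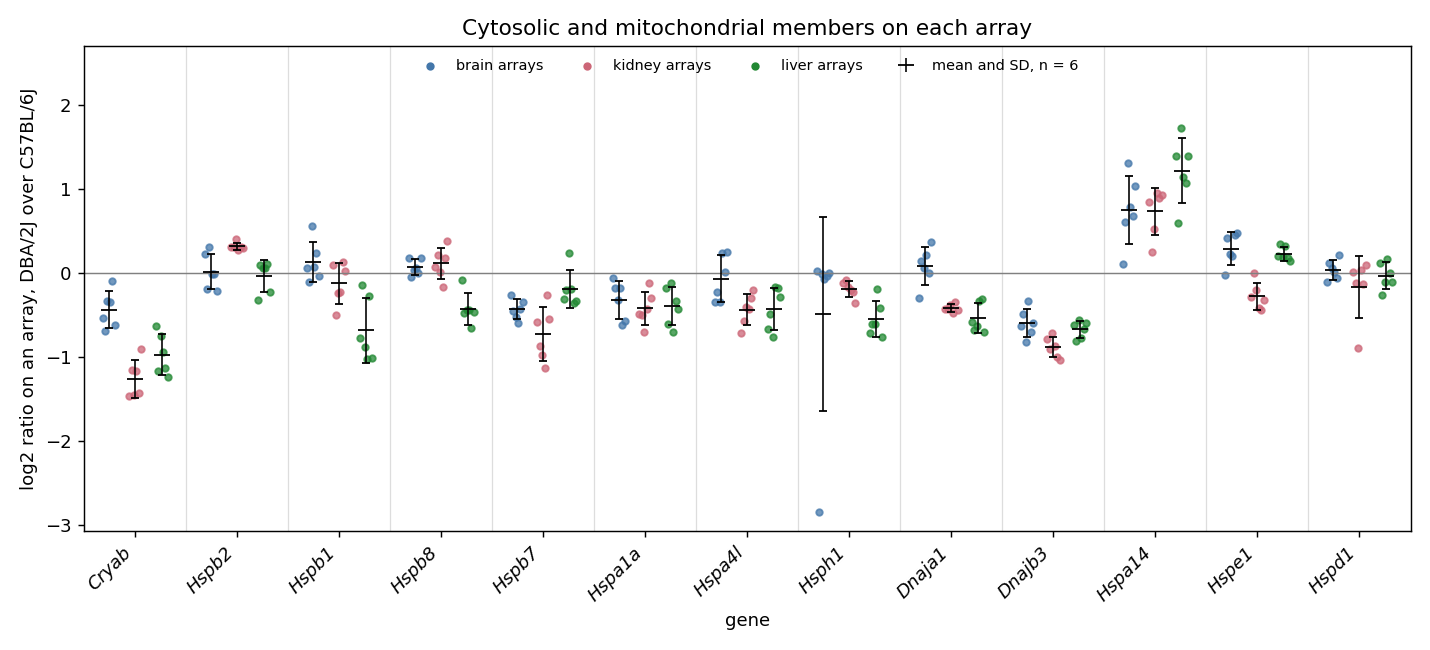
Log2 ratio on each array (vertical axis, DBA/2J over C57BL/6J) for 11 cytosolic genes and the mitochondrial Hspe1 and Hspd1, coloured by tissue, with the mean and SD of 6 arrays. All 18 arrays lie below 0 for Cryab, Hspa1a and Dnajb3 and above 0 for Hspa14, while Hsph1 has a single brain array at -2.84; without loess the kidney means of Hspa1a, Dnaja1, Hsph1 and Hspe1 turn to the other side of 0.

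The CCT chaperonin is a ring of 8 kinds of subunit that folds actin and tubulin. Of the 8 numbered Cct genes 1 was called in brain, 2 in kidney and 1 in liver, where 13.6%, 39.8% and 23% of all features were called. These genes do not match the subunits 1 to 1, since Tcp1 encodes a subunit and is not a member. Tcp1 was higher in kidney at 0.28 ± 0.05 (adjusted p 0.00288), or 0.59 without loess and 0.17 with intensities in lowest terms. It was at -0.02 in brain and 0.13 in liver, not past the threshold. In liver the median of the 8 Cct genes was -0.10 and Cct5 was lower at -0.27 ± 0.25 (adjusted p 0.0418), from -0.57 to 0.05. In kidney the median was 0.09, and Cct2 was higher at 0.32 ± 0.28 (adjusted p 0.0141), with array 3 at 0.86 and a mean of 0.21 without it. Cct6b was higher in kidney at 0.20 ± 0.11 (adjusted p 0.0251), or 1.19 without loess and 0.32 with 1 loess curve per array. In brain the median was 0.05 and Cct8 was lower at -0.33 ± 0.24 (adjusted p 0.0304). The Cct5 call ended without liver array 1 (-0.23), 3 (-0.21), 4 (-0.26) or 6 (-0.27), without loess (-0.19) and with 1 loess curve per array (-0.24). The Cct6b call ended without kidney array 1 (0.21), 3 (0.16) or 4 (0.21), and the Cct8 call without brain array 1 (-0.30), 2 (-0.34), 4 (-0.26), 5 (-0.35) or 6 (-0.33) and without loess (-0.22). Cct3, Cct4, Cct6a and Cct7 were called in no tissue, with means from -0.18 to 0.17, and without loess the kidney means of Cct3 and Cct4 were -0.52 and 0.41. The Cct4 values are averages of 2 spots that differed. One spot was lower in kidney (-0.24, adjusted p over spots 0.00804) and liver (-0.23, adjusted p over spots 0.0284). The other was at -0.01 and -0.13, not past the threshold.

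Among the mitochondrial genes, Hspe1, which encodes the lid of the mitochondrial chaperonin (HSP10), was called in each tissue but not in one direction. It was at 0.29 ± 0.19 in brain (from -0.03 to 0.47, adjusted p 0.034), -0.28 ± 0.16 in kidney (from -0.44 to 0.00, adjusted p 0.00788) and 0.23 ± 0.08 in liver (from 0.15 to 0.34, adjusted p 0.0205). Kidney differed from brain by -0.57 ± 0.10 (SE, adjusted p 0.000282) and from liver, which was higher by 0.51 ± 0.10 (SE, adjusted p 0.000818). Without loess the kidney mean turned to 0.41 and the liver minus kidney difference to -0.09, and with 1 loess curve per array the kidney mean was -0.46. The brain call ended without brain array 2 (0.27), 3 (0.30), 4 (0.31), 5 (0.26) or 6 (0.26), and the liver call without liver array 3 (0.24) or 4 (0.21) and with intensities in lowest terms (0.19). Hspd1 (HSP60), the ring that the lid closes, was called in no tissue, at 0.04 ± 0.12, -0.16 ± 0.37 and -0.03 ± 0.16. Its kidney mean rested on array 3 at -0.89 and turned to 0.72 without loess.

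Hspd1 and Hspe1 are transcribed from opposite strands of chromosome 1, and their annotated start sites lie 95 or 216 bases apart. The stretch between them, which both genes share, is shown as read toward Hspe1 (chr1:55088054-55088147, plus strand), with the overlapping 3-unit HSF1 motifs in capitals.
Hspe1: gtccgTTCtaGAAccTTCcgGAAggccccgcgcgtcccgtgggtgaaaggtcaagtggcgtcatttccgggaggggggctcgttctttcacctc
The letters lie 89 to 72 bases before the Hspe1 start site. The other mitochondrial members were Hspa9 (mortalin), the HSP70 that pulls proteins into the matrix, and 4 J proteins. Dnajc19, a J protein of the inner membrane linked to the import motor, was higher in kidney, from 0.40 to 0.66, with a mean of 0.50 ± 0.10 (n = 6, adjusted p 5.98e-05), or 1.00 without loess and 0.84 with intensities in lowest terms. It was at 0.19 ± 0.18 in brain and 0.17 ± 0.24 in liver, not past the threshold. Dnajc15, a relative of Dnajc19, was higher in liver at 0.30 ± 0.18 (adjusted p 0.0148). Hspa9 and Dnaja3 were called in no tissue, with means from -0.18 to -0.02 for Hspa9, whose kidney array 3 was at -1.0 and whose kidney mean turned to 0.44 without loess, and from -0.06 to 0.08 for Dnaja3.

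The direction of a kidney ratio often depended on the scaling. Of 32 called kidney members 12 took the other sign without loess, 9 of them lower and 3 higher after loess. The 9 were bright, at a median intensity percentile of 91.9, and the 3 were dim, at 6.46. In liver 1 called member took the other sign under some scaling (Dnajb7) and in brain none did. Cryab, Dnajb3, Hspb7 and Hspa4l stayed lower, and Hyou1, Dnajc18 and Dnajc19 higher, in kidney under each scaling run. Kidney markers were themselves lower in DBA/2J kidney, 4 of 7 measured, with a median of -0.33, and their part in the kidney ratios was not tested.

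**Figure D5:**
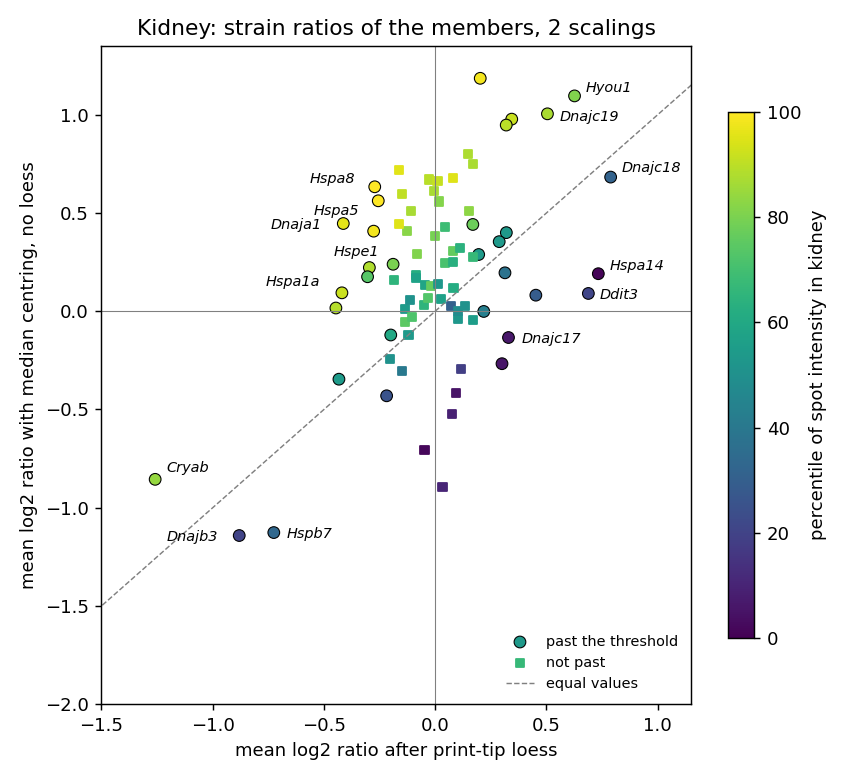
Mean kidney log2 ratio of each member after print-tip loess (horizontal axis) and with median centring without loess (vertical axis), coloured by the percentile of spot intensity in kidney, with circles for called members, squares for the others and a dashed line of equal values. Of the called members 12 lie in the quadrants where the signs differ, among them Hspa8, Hspa5, Dnaja1, Hspe1 and Hspa1a, while Cryab, Dnajb3 and Hspb7 are lower under both.

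Tested as differences between tissues, the strain ratio of 10 members was lower in liver than in brain by limma and that of 0 was higher (4 at an unadjusted p below 0.05), where 7.6% of all features differed, 3.27% higher and 4.33% lower in liver. The 10 were Hspb1, Dnajb9, Herpud1, Dnaja1, Dnajc3, Hspa13, Cryab, Xbp1, Hspb8 and Hsp90b1, so that 5 of them were ER genes. Liver and kidney differed for 20 members, 17 with a lower ratio in liver and 3 with a higher one, against 18.4% of all features, 7.75% higher and 10.7% lower. Among the 13 ER genes 5 had a lower ratio in liver than in kidney, namely Hyou1, Herpud1, Dnajb9, Hsp90b1 (-0.57 ± 0.09 SE, adjusted p 6.9e-05) and Dnajc3 (-0.50 ± 0.11 SE, adjusted p 0.0024). Ddit3 fell into the same set at -0.86 ± 0.20 (SE, adjusted p 0.00389), or -0.53 and not past the threshold without loess.

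Kidney and brain differed for 24 members, 11 with a higher and 13 with a lower ratio in kidney, against 22.8% of all features, 11.1% higher and 11.8% lower. Leaving out brain array 2 (14 members), brain array 5 (13), brain array 6 (14) or kidney array 5 (14) cut this count by more than 1.5 times, and without loess the split was 18 higher to 6 lower. The largest differences were those of Cryab, Dnajc18, Hyou1, Hspe1 and Hspa5 (-0.71 ± 0.15 SE, adjusted p 0.00161, or -0.21 and not past the threshold without loess). Across the 80 genes the mean ratios of brain and kidney correlated with a Pearson's r of 0.44, those of brain and liver with 0.56 and those of kidney and liver with 0.521. Over all features the values were 0.305, 0.447 and 0.359, and all arrays share the same spots and dye order.

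A further list of 106 proteostasis genes outside the members (other ER folding, degradation, co-chaperone and mitochondrial protease genes) had 92 measured. In liver 23 of them were lower and 8 higher, with a median of -0.08, and its 42 ER genes held 15 lower and 3 higher with a median of -0.12. Over all features in liver, 12.2% were lower and 10.9% higher. In kidney the list held 19 higher and 20 lower and in brain 5 each way, against 39.8% and 13.6% of all features called, so both counts were near the background. Genes are named from those called with 1 sign on all 6 arrays, which leaves out, among others, Mbtps1 in liver and brain (-0.63 and -0.38) and Afg3l2 and Eif2ak4 in kidney (0.47 and -0.42). Of the genes so chosen, the lowest in liver were Ero1b (-1.12 ± 0.30, adjusted p 2.82e-05), an oxidase that drives disulfide formation, Serp1 (-0.95 ± 0.38, adjusted p 0.000239), a translocon protein induced by ER stress, Clpx (-0.69 ± 0.23), a mitochondrial unfoldase, P4hb (-0.61 ± 0.27), a protein disulfide isomerase, and Creld2 (-0.49 ± 0.15), an ER stress target. The highest in liver were Bag3 (0.52 ± 0.29), the co-chaperone that works with Hspb8, Timm44 (0.47 ± 0.08, or 1.02 without loess), Afg3l2 (0.38 ± 0.18, or 0.20 and not past the threshold with 1 loess curve per array), Pfdn2 (0.36 ± 0.08) and Chac1 (0.28 ± 0.20, a call that ended without liver array 3 or 5). In brain Creld2 was again lower (-0.80 ± 0.31, adjusted p 0.000703), as were Eif2ak4 (-0.38) and Derl1 (-0.31), and Timm44 (0.67, or 1.09 with 1 loess curve per array), Pam16 (0.62), Ssr2 (0.40) and Pdia3 (0.27) were higher. The Ssr2 call ended without loess (0.21) and with 1 loess curve per array (0.23). The calls of Eif2ak4 (brain array 4 or 5), Derl1 (brain array 2, 3, 4 or 5) and Pdia3 (brain array 3, 4, 5 or 6) ended without a single array. That of Derl1 also ended with 1 loess curve per array (-0.32) and with intensities in lowest terms (-0.25), and that of Pdia3 in the fit of all arrays. In kidney Lonp1 (0.85), Bag6 (0.64), Pam16 (0.56, or 1.19 without loess), Asns (0.50) and Ssr1 (0.45) were highest and Mbtps1 (-0.89, or -0.59 without loess), which encodes the protease that activates ATF6, Bag5 (-0.65), Clpx (-0.48, or 0.26 without loess), Crebzf (-0.40, or -0.84 without loess) and Pdia6 (-0.36, or -0.09 without loess) lowest.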

How the data were processed

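RNA of pooled mice was hybridised to 18 two-colour arrays, and the deposited table holds 1 log2 ratio for each of 23040 spots on each array. Per the labels, images were quantified with Spot and the log2 ratios normalised by print-tip lowess in limma; the sources used here give neither versions nor a background correction. Each of the 391770 values kept (100.0%) could be written as log2 of 1 whole number over another (tolerance 1e-12), so they were treated as ratios of raw intensities. Spots at 0 on every array (1275) were left out.

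These whole numbers were found up to a common factor, and the factor was set from the other arrays of the tissue. Ratios were normalised by print-tip loess in limma 3.58.1 under R 4.3.3 (span 0.3, 4 iterations, 48 blocks of 480 spots). Spots with 1 symbol were averaged by gene, with symbols updated by Entrez identifier, which gave 20218 features. Each tissue was tested against 0 with lmFit and eBayes, tissues were compared by contrasts in a fit of all 18 arrays, and p-values were adjusted by Benjamini-Hochberg over all features at a threshold of 0.05. The steps were tested on simulated data.

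Alternatives were median centring without loess, 1 loess curve per array, intensities in lowest terms, arrays scaled to a common spread, features under the 25th intensity percentile left out, spots apart, the fit of all arrays, a replicate block and each array left out. Members and gene lists, among them markers of the tissues and of other cell types, were chosen with earlier results of these data known. Members were named where called with the same sign on all 6 arrays and a mean of at least 0.4 either way, as the best known of a role, for the 5 largest differences between each pair of tissues, or for spots that differed in sign. Genes of the further proteostasis list were named as the 5 highest and 5 lowest called means with the same sign on every array. Tcp1 was named as the gene of a CCT subunit. Other members named, Hspb2 among them, were chosen after their values were seen.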

Additional observations from a re-analysis of the deposited data

Results flagged for a closer look

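An array that stood far from the other 5 of its tissue was found in 20 of 240 sets of 6 values, by Dixon's gap test at its 95% level. Chance alone flags about 5% of such sets, here 12. In brain these were Dnajb7 on array 3 (-0.355, others -0.021 to 0.13), Dnajc5 on array 1 (0.193, others -0.24 to -0.089), Hspa12a on array 1 (0.286, others -0.049 to 0.029) and Hsph1 on array 2 (-2.84, others -0.071 to 0.028). In kidney these were Cct2 on array 3 (0.859, others 0.12 to 0.39), Cct6b on array 3 (0.428, others 0.13 to 0.18), Dnajb14 on array 6 (0.17, others -0.17 to -0.062), Dnajc30 on array 5 (-0.309, others -0.079 to 0.039), Hspa12b on array 5 (-0.389, others -0.037 to 0.15), Hspa8 on array 5 (-0.791, others -0.25 to -0.086), Hspa9 on array 3 (-1, others -0.14 to 0.15), Hspb2 on array 3 (0.401, others 0.27 to 0.31) and Hspd1 on array 3 (-0.888, others -0.13 to 0.10). In liver these were Cct2 on array 1 (-0.419, others 0.041 to 0.28), Ddit3 on array 5 (-1.47, others -0.15 to 0.51), Dnajc14 on array 5 (0.673, others -0.17 to 0.023), Dnajc18 on array 2 (-0.233, others 0.21 to 0.42), Dnajc3 on array 3 (-0.626, others -0.35 to -0.23), Hspa8 on array 1 (0.444, others -0.49 to -0.26) and Hspb7 on array 3 (0.245, others -0.35 to -0.19). For Hspa8 the far arrays came from the spot with equal channels, at 2.05 on liver array 1 and -1.48 on kidney array 5, where the other spot read -1.17 and -0.10. Kidney array 3 was the far one for Cct2, Cct6b, Hspa9, Hspb2 and Hspd1.

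Strain ratios that differed between tissues in the limma contrasts, past the threshold, are given as differences of mean log2 ratios. Kidney minus brain was above 0 for Cct8 (0.43), Dnajb13 (0.52), Dnajc12 (0.31), Dnajc17 (0.33), Dnajc18 (0.81), Dnajc19 (0.31), Dnajc27 (0.37), Dnajc9 (0.39), Hspb2 (0.30), Hspb9 (0.32), Hyou1 (0.68). Kidney minus brain was below 0 for Cryab (-0.82), Dnaja1 (-0.50), Dnaja2 (-0.38), Dnajb3 (-0.29), Dnajc30 (-0.37), Dnajc4 (-0.42), Hspa12b (-0.38), Hspa13 (-0.37), Hspa4l (-0.37), Hspa5 (-0.71), Hspa8 (-0.52), Hspb11 (-0.36), Hspe1 (-0.57). Liver minus brain was below 0 for Cryab (-0.54), Dnaja1 (-0.62), Dnajb9 (-0.76), Dnajc3 (-0.60), Herpud1 (-0.66), Hsp90b1 (-0.48), Hspa13 (-0.56), Hspb1 (-0.81), Hspb8 (-0.49), Xbp1 (-0.52). Liver minus kidney was above 0 for Dnajc4 (0.34), Hspb7 (0.54), Hspe1 (0.51). Liver minus kidney was below 0 for Cct6b (-0.27), Ddit3 (-0.86), Dnajb13 (-0.47), Dnajb9 (-0.67), Dnajc12 (-0.36), Dnajc17 (-0.41), Dnajc18 (-0.56), Dnajc19 (-0.33), Dnajc25 (-0.47), Dnajc3 (-0.50), Dnajc9 (-0.50), Herpud1 (-0.83), Hsp90b1 (-0.57), Hspb1 (-0.56), Hspb2 (-0.35), Hspb8 (-0.54), Hyou1 (-0.92). Without loess the kidney minus brain differences of Dnaja1, Dnajc17, Dnajc30, Dnajc9 and Hspa8 and the liver minus kidney differences of Dnajc17 and Hspe1 took the other sign. The differences of Hspa5 and Hspa8 rest in part on a spot with equal channels.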

How the results depend on the processing

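Settings changed one at a time kept the direction of the liver ER median (-0.29 to -0.19) and of the liver median of all members. Median centring of each array without loess moved kidney most. Under it the median of the members was 0.068 in brain and 0.18 in kidney, 13113 of all features were called in kidney, and 7113, 830 and 9288 features differed for kidney minus brain, liver minus brain and liver minus kidney, the last with 37 members. With 1 loess curve per array the kidney minus brain count fell to 14 members and the liver minus brain count to 867 features. With the intensities in lowest terms brain held 17 called members, 11 higher and 6 lower, and liver minus kidney 32 members and 6486 features.

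Without loess the medians of the cytosolic members in brain (0.033) and of the mitochondrial members in kidney (0.44) took the other sign, the latter also with intensities in lowest terms (0.076). Without loess the kidney means with the other sign were those of Cct3 (-0.52), Cct4 (0.41), Cct5 (0.61), Dnaja1 (0.45), Dnaja2 (0.016), Dnajb7 (-0.89), Dnajb8 (-0.42), Dnajc15 (0.67), Dnajc17 (-0.13), Dnajc22 (0.51), Dnajc30 (0.29), Dnajc5 (0.22), Dnajc9 (-0.27), Hspa12a (-0.0012), Hspa1a (0.094), Hspa2 (0.18), Hspa4 (0.60), Hspa5 (0.56), Hspa8 (0.63), Hspa9 (0.44), Hspb8 (-0.30), Hspd1 (0.72), Hspe1 (0.41) and Hsph1 (0.24), and in liver that of Dnajb7 (-0.089). The differences that turned without loess were, for kidney minus brain, Cct3 (-0.39), Cct4 (0.37), Dnaja1 (0.15), Dnajb7 (-0.45), Dnajc17 (-0.19), Dnajc22 (0.53), Dnajc30 (0.047), Dnajc9 (-0.091), Hspa4 (0.52), Hspa8 (0.083), Hspd1 (0.55) and Hspe1-ps6 (0.49), and for liver minus kidney, Dnajb2 (-0.38), Dnajc17 (0.24), Dnajc5 (-0.48), Dnajc5b (0.65), Hspa1a (-0.52), Hspa8 (-0.64), Hspd1 (-0.57), Hspe1 (-0.086) and Hspe1-ps6 (-0.50). With intensities in lowest terms the kidney means of Cct5 (0.31), Dnajb12 (0.19), Dnajb7 (-0.21), Dnajc15 (0.21), Hspa2 (0.016), Hspa9 (0.39) and Hspb11 (0.18) and the kidney minus brain difference of Hspa9 (0.39) turned. With 1 loess curve per array Dnajb7 turned in kidney (-0.32) and liver (-0.029), and without the spots of equal channels, an alternative chosen after seeing the data, the liver minus kidney differences of Hspa5 (-0.44) and Hspa8 (-0.79) turned. The cause of these changes was not tested.

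Leaving out 1 array at a time gave 6 to 15 called members in brain, 24 to 29 in kidney and 19 to 29 in liver, with medians of -0.0054 to 0.02, 0.0047 to 0.02 and -0.09 to -0.07. All features called ran from 1312 to 3339, 6527 to 7725 and 2969 to 4660, the brain count being lowest without brain array 4 (1312; 1485 without 5, 1556 without 6 and 1654 without 2) and the liver count without liver array 3. Differences held 13 to 24, 10 to 12 and 16 to 22 members and 3530 to 4992, 1193 to 1607 and 2838 to 3696 features for kidney minus brain, liver minus brain and liver minus kidney. Whichever array was left out, the call was kept by 6 of the 10 brain members, 23 of the 32 kidney members and 17 of the 26 liver members. Arrays of different tissues share a replicate number and nothing else in the labels. The deviations of same-numbered arrays correlated with r from -0.23 to 0.16 across features, and not every array correlated best with its own number. With the replicate number as a block, the counts of members were 19 for kidney minus brain, 11 for liver minus brain and 19 for liver minus kidney, and those of all features 4269, 1391 and 3467. The number of arrays, the pooled mice and the fixed dye order limit what these ratios show, and ratios of the brightest spots cannot show a strain difference where both channels are equal.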

Other observations

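Other marker lists were measured beside the members. Blood markers (2 measured) held 1 lower in brain and 1 lower in kidney, Hba-a1 in both (-0.55 and -0.69), and were at -0.10 and 0.22 in liver, not past the threshold. Endothelial markers (4 measured) held 1 higher in brain, 2 lower in kidney and 1 higher in liver. Fat markers (2 measured) held 2 higher in kidney, and 1 higher and 1 lower in liver. The 3 macrophage markers measured had a brain median of -0.11, a kidney median of -0.05 and a liver median of -0.16, and the lowest adjusted p among them was 0.108 (limma). The 7 brain markers held 1 lower in brain, and the 8 liver markers held 2 lower in liver.

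Neighbours were measured for Cryab, Hspa14, Dnajb3, Hspa1a, Hspe1, Hyou1, Herpud1 and Dnajb9, and some of those of Hspa14, Cryab and Hyou1 are given. Next to Hspa14 on chromosome 2, Suv39h2 was at 0.01 ± 0.25 in brain, -0.35 ± 0.20 in kidney and -0.01 ± 0.08 in liver. On the other side of Hspa14, Fam107b was at -0.06, 0.29 and 0.01, and called higher in kidney. Beyond it Frmd4a was at 0.27, 0.25 and 0.10, and called higher in brain and kidney. Beyond Hspb2 on the Cryab side of chromosome 9, 1110032A03Rik was at -0.30 ± 0.27, -0.68 ± 0.12 and -0.18 ± 0.29, lower in kidney as Cryab was and not past the threshold in the other tissues. Further from Cryab, Pih1d2 was also lower in kidney at -0.76 ± 0.55. Alg9 was higher there at 0.22, and Dlat and Dixdc1 were not past the threshold. Next to Hyou1, Vps11 was at -0.07 in liver and not past the threshold, and Slc37a4 was lower there at -0.26. Beyond Slc37a4, Trappc4 was lower in liver at -0.24 and Rps25 higher at 0.54.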
